A study of Mus musculus with 3 samples.

Results

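The expression landscape described here is that of a wildtype culture of mouse embryonic stem cells, read from its own array and without reference to any other. The members are the probes of that array, 1 of the 3 in the study, chosen by the wildtype genotype label. The other 2 arrays, from Pcgf6 knockout cells and from knockout cells given Flag-tagged Pcgf6, were not compared with it. The wildtype cells are labelled male and as embryonic stem cells, although the source label also contains the word muscle. Their growth on mouse embryonic fibroblasts inactivated with mitomycin-C, in DMEM with 15% fetal calf serum and leukemia inhibitory factor, means that the total RNA can hold transcripts of both cell types. The RNA was amplified, labelled with the dye Cy3 and read on an Agilent array of 1 colour. A single array gives no replicate of the culture, so there is no test and no p-value, and this number limits the precision.

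Embryonic stem cells come from the inner cell mass of the blastocyst and divide indefinitely while keeping the capacity to form all tissues of the embryo. Their state rests on a network of transcription factors around Pou5f1, Sox2 and Nanog, and leukemia inhibitory factor holds it through the kinase Jak1 and the transcription factor Stat3. Genes of later lineages are in large part held by Polycomb complexes on CpG-rich promoters, whereas many genes of mature tissues have promoters poor in CpG. Feeder fibroblasts supply matrix and secreted factors and no longer divide after mitomycin-C.

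Levels are log2 values of the processed signal relative to the 75th percentile over the array's probes, so that a level of 0 corresponds to a signal of 3917 units. Genes were placed in 4 bands by rank among all 55678 non-control probes. A gene was abundant where its brightest probe lay at or above the 90th percentile, a level of 2.34, and intermediate from there down to the 50th percentile, a level of -4.00. Below that it was low where the probe was well above background, a call that the scanner software makes per spot. A gene with no probe well above background is called silent, which says only that it missed this call. Another call of the same software, of a positive and significant signal, puts 84.9% of named genes above background rather than 75.6%, so a silent gene is not one without signal. A signal depends on the probe as well as on the RNA, so the order of genes within a band is not an order of RNA amounts. In RNA from a whole culture, fewer cells of a type and less RNA per cell cannot be told apart.

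Of the 55678 probes, 36361 (65.3%) were well above background. Levels of these ran from about -6.22 to 5.94, and signals had a median of 245 units over all probes. Below lay a peak of 10291 probes between -8.5 and -8, which is where the negative controls stood, with a median signal of 11.7 units over 308 spots. The 26761 probes that could be named belonged to 20283 genes. Of these, 15341 (75.6%) were well above background, and 4942 (24.4%) were silent. The abundant band held 3008 genes (14.8%), the intermediate band 10235 and the low band 2098. The summed signal was spread over many probes: the 10 brightest held 0.59% of it, the 1000 brightest 27.7%, and 2672 probes (4.80%) held 1 of every 2 units.

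**Figure D1:**
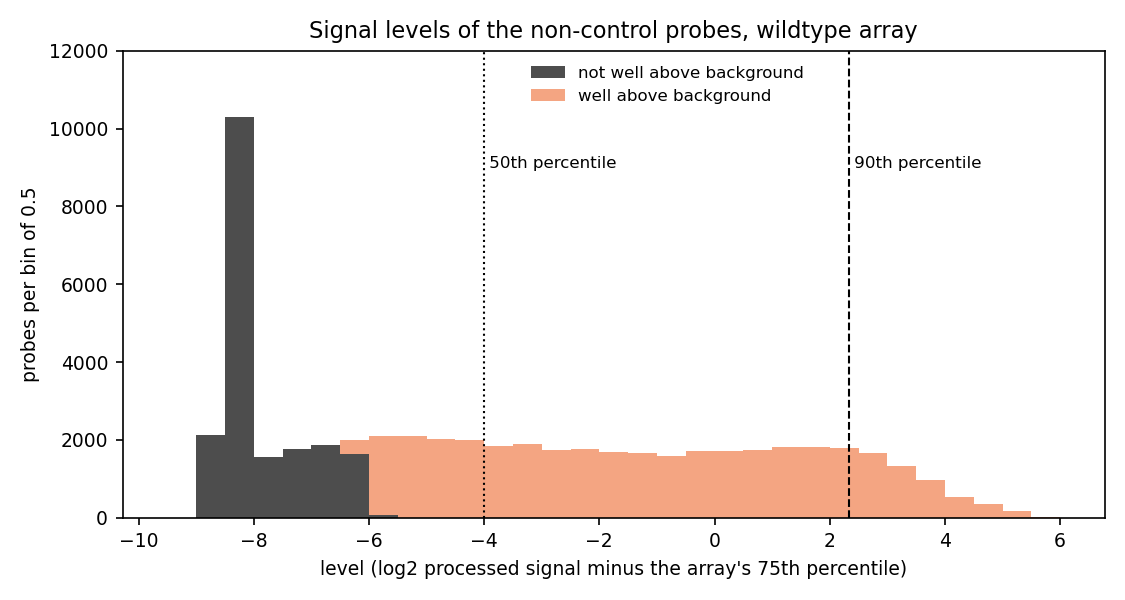
The plot counts probes of the wildtype array in bins of 0.5 along the level (log2 processed signal minus the 75th percentile), split by the call of the scanner software. Silent probes form a peak of 10291 probes between -8.5 and -8, and probes well above background spread evenly from about -6 to 2.34, the 90th percentile, before they thin out.

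Precision within the array was high for a single probe and poor between probes of the same gene. Among 323 probes that were spotted repeatedly and well above background, the median SD of the spots was 0.06 on the log2 scale. By contrast, the probes of the 5405 genes with several probes spanned a median of 1.76 (3.38-fold), and 718 of these genes (13.3%) spanned over 5. In 861 genes (15.9%) some probes were well above background and others were not. A gene read by 1 probe was above background in 71.2% of cases, 1 read by 2 probes in 86.6% and 1 read by 3 or more in 93.6%. The abundant share rose likewise, from 12.2% to 20.9% and 28.5%. Of 1196 abundant genes with several probes 418 had every probe in the abundant band. Classes differ in their number of probes: 33 of 46 large ribosomal subunit genes had several, against 5405 of 20283 named genes. The abundant shares of classes were not adjusted for this. A band therefore describes the brightest probe and not a measured transcript level of the whole gene.

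The 25 highest genes with established names show this most plainly. They lay between 5.37 and 5.74, and 3 predicted genes stood among them. Exosc2, a subunit of the RNA exosome, had the highest level at 5.74 from its only probe. 6 of the 25 encode ribosomal proteins: Rpl41 at 5.55, Rpl29 at 5.51, Rpl15 at 5.50, Rpl12 at 5.41, Rps13 at 5.37 and Rpl24 at 5.37. Npm1, a nucleolar histone chaperone, had 4 probes from 1.74 to 5.47, and Tpt1, a conserved growth-related protein, had 3 probes from 3.69 to 5.43. Others in this group are best known from other tissues and rested on 1 probe of several. Slc10a1, the bile acid transporter of hepatocytes, had probes at 5.55 and -5.75. Foxl2, a transcription factor of the ovary, had probes at 5.37 and -4.44. Nlrp1a, an inflammasome sensor, had a probe at 5.54 and another that was not above background, with a span of 13.88.

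Of the 18 genes in this group with several probes, 6 had every probe in the abundant band and 5 had a silent probe. The 6 genes whose probes differed most were Nlrp1a, Skint7, Ms4a4c, Oprm1, Kctd14 and Ldlrad3, each with a span of at least 13.48. Skint7 is known from thymic epithelium and Oprm1 is the mu opioid receptor. When genes with several probes were ordered by their lowest probe instead, the list began with Rpl29 at 5.15, the histone gene H2ac15 at 5.11, the ubiquitin gene Ubb at 4.95, the cytokine gene Mif at 4.78 and the tubulin gene Tuba1b at 4.73. That order held 9 ribosomal protein genes among its first 25, and 2 of the 25 were shared with the order by the brightest probe.

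**Figure D2:**
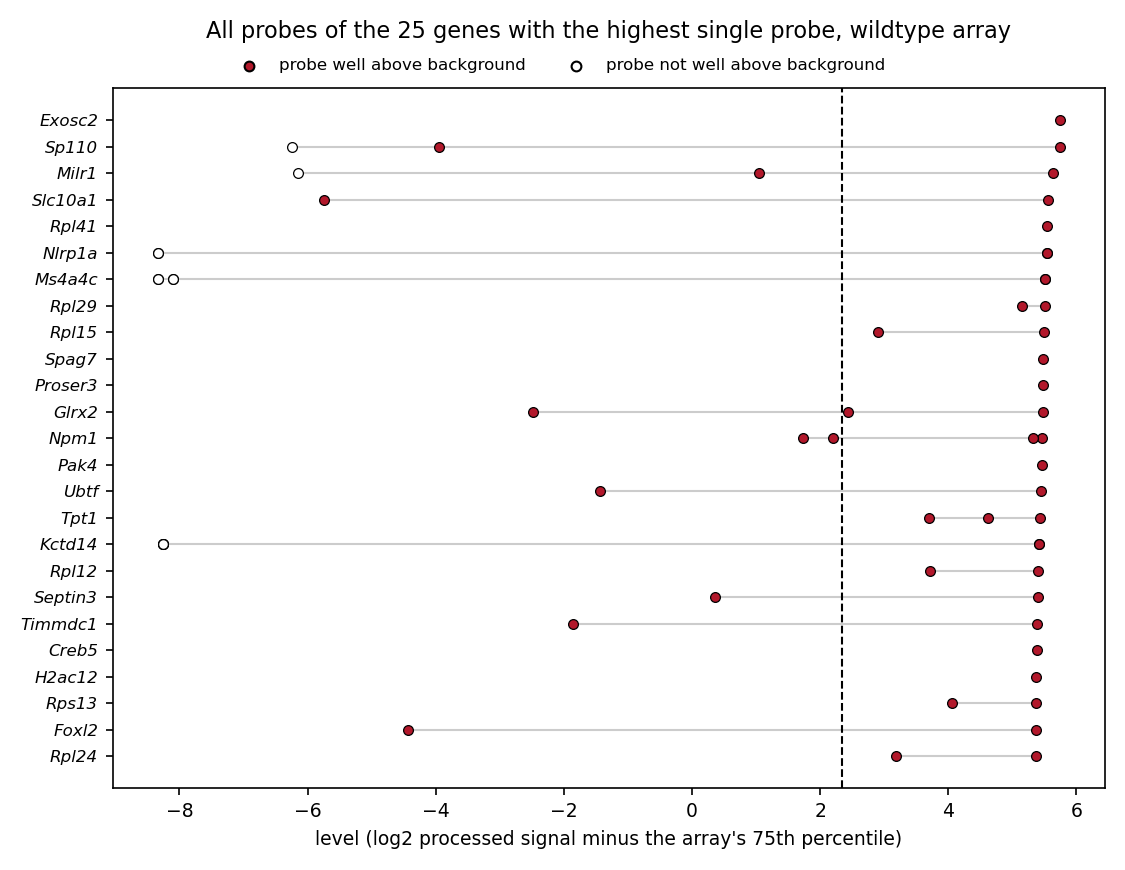
Each row is a gene among the 25 with the highest probe, and each point is a probe at its level (log2 processed signal minus the 75th percentile), filled where it was well above background. The dashed line is the 90th percentile at 2.34. Rpl29, Rpl12, Rps13, Rpl24, Rpl15 and Tpt1 have every probe to the right of the line, whereas Nlrp1a, Ms4a4c and Kctd14 have probes below -8.

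The labelled cell type was checked against its defining genes. All 5 stem cell markers were well above background and 4 were abundant: Nanog at 4.95, Pou5f1 at 4.62, Dppa5a at 4.0 and Sox2 at 3.03. Zfp42, also known as Rex1, was intermediate at 1.77. All 10 fibroblast markers were above background too, and 5 were abundant. Of 7 skeletal muscle markers 4 were above background and 0 were abundant. The muscle regulator Myod1 stood at 1.40, the light chain gene Mylpf at 0.28, the actin gene Acta1 at -0.08 and the troponin gene Tnnt3 at -1.79, while Myog, Ckm and Myh1 were silent. The endoderm factors Gata6, Gata4 and Sox17 stood at -2.40, -2.97 and -4.32. Among the leukocyte markers Csf1r reached 0.22 on the brightest of its 3 probes and Cd3e -3.48, and the pan-leukocyte antigen Ptprc was silent. Markers of other types were not all dim. Of 3 neuron markers all were above background, with the synaptic genes Snap25 abundant at 4.68 and Syn1 at 1.59 and the splicing factor Rbfox3 at -1.90, and the hepatocyte marker Apoa2 was abundant at 2.84 while Alb was silent. Of 3 erythroid markers 2 were above background and 0 abundant.

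Genes for the labelled sex were read in the same way. The Y-linked genes Ddx3y and Eif2s3y stood at 0.36 and 0.05, Uty at -3.00 and Sry at -5.44, while Kdm5d, Usp9y, Zfy1 and Zfy2 were silent. Xist, the RNA that coats the inactive X chromosome of female cells, had probes at 0.20 and -5.36. Whether stem cells or feeder fibroblasts gave these signals was not tested.

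The highest shares of abundant genes were those of cytosolic ribosomal proteins, translation factors and mitochondrial ribosomal proteins. All 46 genes of the large ribosomal subunit and 31 of 32 of the small subunit were abundant, and Rps21 was intermediate at 1.82. The probes of cytosolic ribosomal proteins, 166 in number, held 3.16% of the summed signal. Of 30 genes listed as translation factors 27 were abundant. Apart from the growth-related Tpt1, which the list includes, the brightest were Eif1 at 5.04, the start codon selection factor, and Eif5a at 5.01. Eif4e and Eef1d were intermediate at 2.15 and 1.94, and the only low gene was Eef1a2 at -5.85, the elongation factor form of muscle and neurons, whereas its ubiquitous counterpart Eef1a1 stood at 3.58. Of 78 mitochondrial ribosomal protein genes 70 were abundant, led by Mrpl51 at 4.43, and Mrpl21 was silent on its probe. Aminoacyl-tRNA synthetases were abundant in 14 of 19 genes, from Gars at 4.05 down to Yars at -2.13, and hnRNP and serine-arginine splicing factors in 22 of 30, with Hnrnpa3 at 4.29 on the brightest of 7 probes. All 51 DEAD-box and DEAH-box helicases were above background, 19 of them abundant.

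Protein folding, turnover and energy supply followed. Chaperones were abundant in 24 of 27 genes, with the cytosolic chaperones Hsp90ab1 at 5.17 and Hspa8 at 4.90, while the heat-inducible Hspa1a was intermediate at -0.78. Of 34 proteasome subunits 30 were abundant, from Psma2 at 4.59, and the immunoproteasome subunits Psmb9 and Psmb8 were intermediate at 0.06 and -0.37. Of 43 respiratory chain genes 37 were abundant, led by Cox4i1 at 4.87. The 2 that were silent, Cox6a2 and Cox8b, encode forms known from heart and skeletal muscle, and Cox4i2, a form known from lung, was low at -5.58. Of 25 glycolysis genes 15 were abundant, 7 intermediate and 3 silent. Gapdh at 5.07, Aldoa at 5.05, Eno1 at 4.89 and Ldha at 4.78 were abundant, and so was the muscle form of enolase, Eno3, at 3.03. The muscle form of phosphoglycerate mutase, Pgam2, and the neuronal enolase Eno2 were intermediate at -0.60 and -1.67. Pklr, a pyruvate kinase of liver, was silent, and Slc16a1, a lactate transporter, was silent on its only probe. The glucose transporters Slc2a1 and Slc2a3 stood at 3.60 and 3.41.

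Genes of DNA replication were abundant in 29 of 39 cases and above background in all 39. Mcm7, a subunit of the replicative helicase, stood at 4.52, the clamp loader subunit Rfc5 at 4.19, and the sliding clamp Pcna at 3.62. Among the dimmest were Cdc45 at -0.29 and Tyms at -1.37. Of 38 cell cycle genes 14 were abundant, among them Cdk4 at 4.38, Cdc20 at 4.28 and the G1 cyclin Ccne1 at 3.77. The cyclin-dependent kinase Cdk6 was low at -5.46 and the meiotic cyclin Ccna1 low at -5.09. The inhibitors Cdkn1a at 0.99, Cdkn2a at 1.59 and Cdkn2b at 0.96 were intermediate. Among 25 genes of p53 signalling and apoptosis 8 were abundant, including Gadd45a at 3.39 and Mcl1 at 3.28, and the death receptor Fas was low at -4.39. All 40 measured genes of the replication-dependent histone clusters were above background and 11 were abundant, from H2ac12 at 5.38 to H2ac21 at -5.94.

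**Figure D3:**
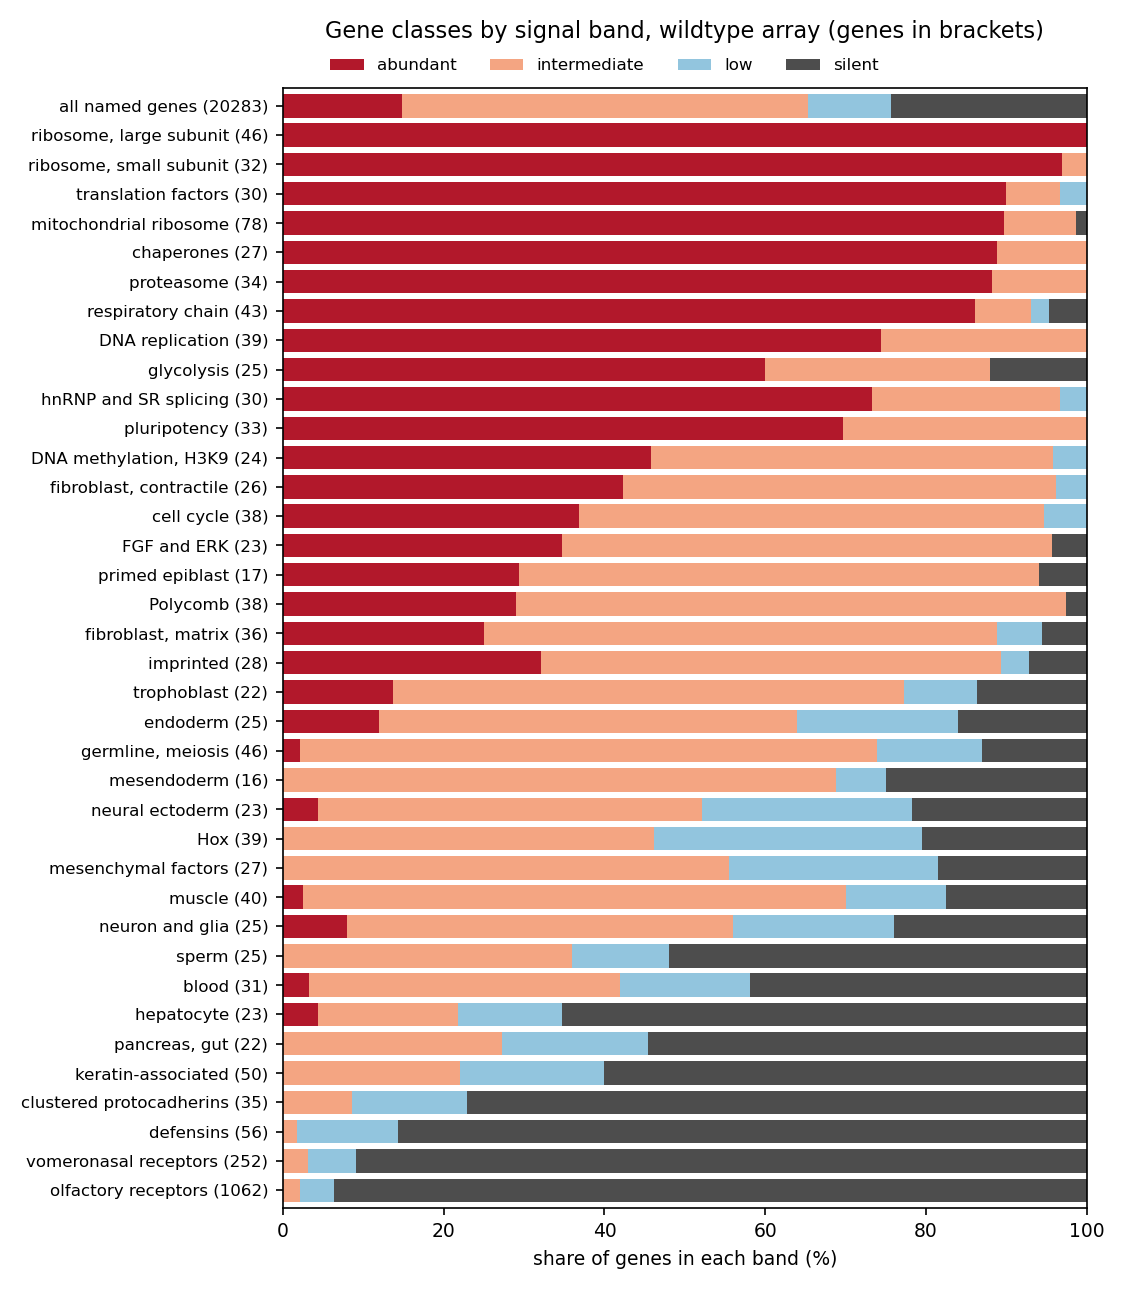
Each bar divides the genes of a class, counted in brackets, among the abundant, intermediate, low and silent bands of the wildtype array, as a share in percent. The top bar holds all 20283 named genes, with 14.8% abundant and 24.4% silent. Ribosomal, translation, mitochondrial ribosome, chaperone, proteasome and respiratory chain classes are mostly abundant, lineage and germline classes are mostly intermediate, and receptor, defensin and protocadherin families are mostly silent.

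Pluripotency genes stood nearly as high as the housekeeping classes. All 33 were above background and 23 were abundant, with a median at the 94.1 percentile of probes against 67.1 for all named genes. Besides the markers, Tdgf1, a co-receptor of Nodal, stood at 4.29 (3 probes, the lowest at 2.78), the corepressor Trim28 at 4.17, and the transcription factor Mybl2 at 4.12. The chromatin factor Utf1 stood at 3.74, the growth factor Fgf4 at 3.69, the Kruppel-like factors Klf5 and Klf2 at 3.48 and 3.34, the nuclear receptor Esrrb at 3.23 and the RNA-binding protein Lin28a at 2.93. Klf4 at 1.24, Tbx3 at 0.58 and Prdm14 at -1.51 were intermediate, the last being the dimmest of the class. In a second class of 34 stem cell transcription regulators, which shares some members with the first, 16 were abundant, among them Mycn at 3.60, and none was low or silent. Smad1 was the dimmest at -1.13.

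The signalling routes that hold or end this state differed in their share of abundant genes. Among all named genes 14.8% were abundant and 75.6% above background. Of 15 genes of leukemia inhibitory factor signalling, all were above background. The 2 abundant ones (13.3%) were the feedback inhibitor Socs3 at 3.67 and the phosphatase Ptpn11 at 2.65. The receptor Lifr stood at 2.26, its partner Il6st at 0.82, Stat3 at 2.08 and Jak1 at 1.75, while the gene for the factor itself, Lif, which was supplied in the medium, stood at -2.68. In the BMP pathway 21 of 21 genes were above background and 3 (14.3%) abundant. The abundant shares of these 2 classes were near that of all named genes. Id3 at 3.61 and Id2 at 2.63 are inhibitors of basic helix-loop-helix factors and known targets of the pathway, and the ligand Bmp4 stood at 2.09 and Bmp2 at -4.02. In the FGF and ERK pathway 8 of 23 genes were abundant, with Fgf4 the brightest ligand and the targets Etv5, Dusp6 and Etv4 at 3.42, 2.99 and 2.56, whereas Fgf5 stood at -3.38 and Fgf2 was silent.

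In the Nodal pathway 5 of 13 genes (38.5%) were abundant, against 14.8% of all named genes. The ligand Nodal stood at 3.28, the inhibitors Lefty2 and Lefty1 at 3.04 and 2.73, the signal transducers Smad2 and Smad3 at 0.72 and -0.25, and the type I receptor Acvr1b was low at -4.19. The receptor Acvr1c was silent on both of its probes. Of 24 Wnt pathway genes 22 were above background, but 1 was abundant, Ctnnb1 (beta-catenin) at 3.34. The repressor Tcf7l1 stood at 1.82 and the feedback target Axin2 at -2.77, the inhibitor Dkk1 was low at -4.99, and the ligands Wnt3a and Wnt10b were silent. Of 17 genes of the primed epiblast 5 were abundant, among them the de novo methyltransferase Dnmt3b at 4.30 and the POU factor Pou3f1 at 2.89. Otx2 was intermediate at 1.88, and Cer1 was silent.

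Chromatin regulators lay in the upper bands. Of 38 Polycomb genes 11 were abundant and 26 intermediate, and Cbx8 was silent. The shared subunit Rbbp7 stood at 4.17, Jarid2 at 3.67, Suz12 at 3.23 and Eed at 2.85, while the catalytic subunits Ezh2 and Rnf2 stood at 1.47 and 1.75. Among subunits of the variant complex PRC1.6, Max stood at 2.73, Pcgf6 at 1.87, E2f6 at 1.76, L3mbtl2 at 1.1 and Mga at 0.72. Of 24 genes of DNA methylation and H3K9 methylation, all were above background and 11 abundant. Mbd3 stood at 4.41, the histone methyltransferase Suv39h2 at 4.38, Dnmt3l at 4.31, Uhrf1 at 3.50 and Dnmt1 at 3.0, while Dnmt3a stood at -1.19 and Tet3 at -5.10.

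Other regulators of chromatin and of the first response to growth signals divided by form. Of 29 chromatin remodelling genes 27 lay in the abundant or intermediate band. The ATPase Smarca4 (Brg1) stood at 3.79 and Chd4 at 3.62, whereas the alternative ATPase Smarca2 (Brm) stood at -2.69, Dpf3 was low at -5.14, and Actl6b, the neuronal counterpart of Actl6a at 2.81, was silent. Of 20 histone variants and histone chaperones all were above background and 12 abundant, and the linker histone H1f0, known from differentiated cells, was the dimmest at -4.50. Of 20 immediate early genes 2 (10%) were abundant, Myc at 2.58 and Jund at 2.41, against 14.8% of all named genes. Fos stood at -1.66, Junb at -3.74, and Egr3 and Nr4a3 were silent. Of 18 genes commonly used as housekeeping references 15 were abundant, from Ubb at 5.32 and Actb at 5.30, and Tbp and Gusb were intermediate at 2.32 and 0.20.

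Lineage regulators were mostly intermediate or low, as were named genes as a whole, of which 50.5% were intermediate, 10.3% low and 24.4% silent. Of 16 mesendoderm genes 11 were intermediate, 1 low and 4 silent, with a median at the 57.5 percentile. Fgf8 stood at -0.18, Eomes at -0.28, the primitive streak factor T (brachyury) was also intermediate, and Gsc was low at -4.22, while Mesp1, Cer1, Msgn1 and Mixl1 were silent. The endoderm class had 3 abundant members of 25, all of them matrix genes, Sparc at 3.87, Lamc1 at 2.85 and Lamb1 at 2.66, and 4 silent ones, among them Ttr, Apoa1 and Hnf4a. Of 22 trophoblast genes 3 were abundant, among them Gcm1, a transcription factor of the labyrinth, with 4 probes from -0.67 to 3.97. Cdx2 and Hand1 stood at -2.33 and -3.17, and Elf5, Tpbpa and Cts7 were silent. Of 23 neural genes 1 was abundant, Gbx2 at 2.68. Sox11 stood at 2.10, Nes at 1.66, Sox1 at -1.37 and Pax6 at -2.14, whereas Neurog1, Neurog2, Dlx1, En1 and Pax7 were silent. The share above background was 75% in the mesendoderm class and 78.3% in the neural class, close to the 75.6% of all named genes, and 84% and 86.4% in the endoderm and trophoblast classes. The abundant shares of the endoderm and trophoblast classes, 12% and 13.6%, were near the 14.8% of all named genes.

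None of the 39 measured Hox genes, which pattern the body axis, was abundant. 18 were intermediate, 13 low and 8 silent, and the class median was at the 47.2 percentile, against 67.1 for all named genes. The share above background, 79.5%, was close to the 75.6% of all named genes. The highest were Hoxd13 at -1.10, Hoxa7 at -1.29 and Hoxb9 at -1.80, the dimmest above background were Hoxa9 at -5.56 and Hoxd9 at -6.10, and Hoxa2, Hoxa4 and Hoxb1 were among the silent ones. Under the call of a positive and significant signal 94.9% of the class rather than 79.5% were above background. Of 28 imprinted genes, by contrast, 9 (32.1%) were abundant, against 14.8% of all named genes. The noncoding RNA Meg3 stood at 3.06 (3 probes, the lowest at 1.70), Snrpn at 3.19 (3 probes, the lowest at -4.64), the placental growth inhibitors Phlda2 and Cdkn1c at 2.71 and 2.63, and Igf2 at -2.65, while Zim1 and Usp29 were silent.

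Germline genes were seldom abundant and seldom silent. Of 46 genes of germ cells and meiosis 1 (2.17%) was abundant, 33 were intermediate, 6 low and 6 silent. Among all named genes 14.8% were abundant and 24.4% silent. Syce2, a central element protein of the synaptonemal complex, stood at 4.02, the translation regulator Dnd1 at 1.92, Tdrd12 at 1.92, Tex19.1 at 1.57, the helicase gene Ddx4 at 1.01 and Sycp3 at 0.95. Prdm9 stood at -3.12 and Nanos2 at -5.75, while Spo11, which makes meiotic breaks, Sycp2, Piwil1, Asz1, Tdrd6 and Tdrd9 were silent. Genes of mature sperm differed from these: 13 of 25 were silent, including the protamine Prm1, the transition protein Tnp1, Acr, Pgk2, Akap4 and Odf1, and none was abundant. The brightest was the outer dense fibre gene Odf2 at 0.95, which also has a role at centrosomes. Of 19 oocyte genes 4 were silent, among them the growth factor Bmp15 and the zona pellucida genes Zp1 and Zp2, whereas Zp3 stood at 1.87. The share of oocyte genes above background, 78.9%, was close to the 75.6% of all named genes.

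Genes that mark a rare state of stem cell cultures resembling the 2-cell embryo were mostly dim. Of 14 genes 2 were abundant, 2 intermediate, 5 low and 5 silent. The abundant share, 14.3%, was near the 14.8% of all named genes, and 64.3% were above background, against 75.6%. Zscan4f stood at -3.54, Zscan4c at -4.27 and Zscan4a at -4.19. Tcstv1 and Tcstv3 were silent. Usp17la stood at 3.56 on 1 probe and was not above background on the other. Members of the Zscan4 family are near-identical copies, so that their probes cannot be assigned to single genes with certainty.

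Matrix and contractile genes known from fibroblasts were mostly above background. Of 36 matrix genes 34 (94.4%) were above background and 9 (25%) abundant, against 75.6% and 14.8% of all named genes. Their median was at the 74.3 percentile of probes, against 67.1 for all named genes. Pcolce, an enhancer of collagen processing, stood at 3.94, Sparc at 3.87 (the lowest of 2 probes at 3.60), fibronectin Fn1 at 3.39, Col1a2 at 2.60 and Col1a1 at 2.51. Col5a2 and Ogn were low at -4.29 and -5.87, and Lum and Eln were silent. Of 26 contractile and surface genes 11 (42.3%) were abundant and none was silent, with a median at the 89.3 percentile. Lgals1 stood at 4.06, Vim at 4.05, Tagln at 4.0, smooth muscle actin Acta2 at 3.64 and Myl9 at 3.61, while Cav1 stood at -3.27 and Pdgfra at -4.46. The transcription factors of mesenchyme were dimmer. Of 27 of them 0 were abundant, 15 intermediate, 7 low and 5 silent, led by Twist1 at 0.25, Prrx2 at -0.25 and Zeb1 at -0.28, with Osr2, Tbx5, Heyl, Runx2 and Foxf1 silent. The part of feeder RNA in these signals was not tested, and many of the matrix and contractile genes are not restricted to fibroblasts.

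Epithelial adhesion genes were present beside them. All 18 were above background and 4 (22.2%) abundant, against 75.6% and 14.8% of all named genes. The abundant ones included Krt18 at 3.17, E-cadherin Cdh1 at 2.86 and Epcam at 2.82. Occludin Ocln and plakoglobin Jup both stood at -2.65, and N-cadherin Cdh2 at 1.52. Of 26 interferon-stimulated and RNA-sensing genes 5 were abundant, of which 3 encode the membrane proteins Ifitm3 at 3.94, Ifitm1 at 3.57 and Ifitm2 at 3.23. Bst2 stood at 3.28, whereas Isg15 stood at -1.84, Ifit1 at -3.78 and Ifit3 at -5.37, and the transcription factor Irf7 was silent. Of 18 genes of antigen presentation all were above background and 5 (27.8%) were abundant. The brightest was the class I gene H2-Q4 at 4.67, followed by the chaperones Calr at 3.8 and Pdia3 at 3.79 and the immunoproteasome subunit Psmb10 at 3.19. B2m stood at 2.88, H2-K1 at 1.02 and H2-D1 at -0.17, the peptide transporter Tap1 at -2.96, and the transactivator Nlrc5 was low at -4.91. Class I genes are alike in sequence, so their probes may share signal.

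**Figure D4:**
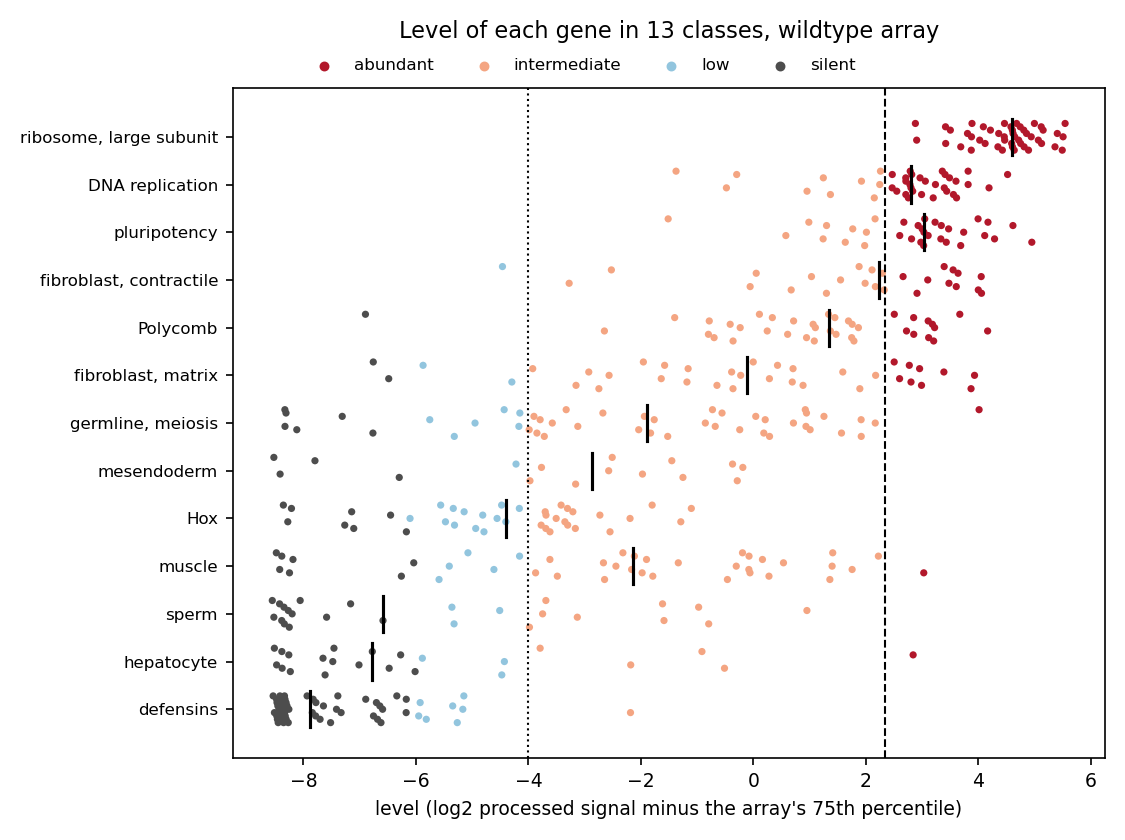
Each point is a gene at its level (log2 processed signal minus the 75th percentile) in 13 classes, coloured by band, with the class median as a black bar. The dotted and dashed lines are the 50th and 90th percentiles, -4.00 and 2.34. All points of the large ribosomal subunit lie right of the dashed line, pluripotency genes cross it, Hox genes spread around the dotted line without reaching the dashed one, and 48 of the 56 defensins are silent, with a median level of -7.89.

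Genes of differentiated tissues showed a graded picture. In the muscle class 33 of 40 genes were above background, which is 82.5% against 75.6% of all named genes, and 1 was abundant, the enolase Eno3 at 3.03. Tnnt1 stood at 2.23, Myl4 at 1.76 and Tnnc2 at 1.41, and among the 7 silent genes were the muscle regulators Myf5, Myf6 and Myog. Of 25 genes of neurons and glia 6 were silent and 76% were above background, near the share of all named genes, and under the other call of the scanner software, of a positive and significant signal, 96% were. Snap25, a SNARE protein of synaptic vesicle release, stood at 4.68 and the neurofilament gene Nefl at 2.73, both abundant, while Gfap, Dcx, Chat and the glutamate receptors Grin1 and Gria1 were silent. Liver genes were silent in 15 of 23 cases, including Alb, Fgb, Apoh and Cyp7a1. Apoa2, an apolipoprotein, was the abundant exception, with probes at 2.84 and 1.88. Under the other call 78.3% of the liver genes rather than 34.8% were above background.

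Genes of pancreas and gut were silent in 12 of 22 cases, among them Gcg, Pdx1, Muc2 and Fabp1, and the highest was Ins1 at 0.94. Under the other call 68.2% of them rather than 45.5% were above background. Of 14 endothelial genes 3 were silent, Cdh5, Erg and Tie1, so that 78.6% were above background, close to the share of all named genes, and the highest was Plvap at 0.15. Blood and immune genes were silent in 13 of 31. Their 1 abundant member was the integrin Itgam, a marker of myeloid cells, at 4.57 on 1 of 3 probes, the other 2 being silent. Likewise Trp63, the master factor of stratified epithelia, stood at 4.95 on 1 probe and was not above background on the other, while Dsg3, Dsc3 and Sprr2d, also of skin, were silent. Of 16 erythroid genes 7 were silent, among them the adult beta-globins Hbb-bs and Hbb-bt and Alas2. Of 23 genes of eye, kidney and lung 12 were silent, including uromodulin Umod and the surfactant gene Sftpc. Of 37 cytokines and chemokines 14 were silent, including Tnf, Il1a, Il4 and Il17a. Csf1 at 1.88 and Ccl2 at 0.68, both also made by fibroblasts, were the highest.

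Large multigene families accounted for much of the silent band. Of 1062 olfactory receptor genes, which nasal sensory neurons express singly, 994 were silent and 68 above background. None was abundant, and the highest were Olfr545 at 0.53 on 1 of 2 probes, Olfr821 at 0.46 and Olfr361 at 0.25. Of 252 vomeronasal receptor genes 229 were silent, the highest being Vmn1r65 at -1.87, and of 37 taste receptor genes 32 were silent, with Tas1r1 at -2.27 the highest. Defensins, antimicrobial peptides of epithelia, were silent in 48 of 56 genes, the highest being Defa23 at -2.18. Keratin-associated proteins of the hair shaft were silent in 30 of 50, with Krtap4-8 at 2.22 the highest and Krtap20-2 at 1.55 next. With that other call, fewer of these genes counted as silent. The share above background was then 25% rather than 6.40% of olfactory receptors, 29% rather than 9.13% of vomeronasal receptors, 40.5% rather than 13.5% of taste receptors and 53.6% rather than 14.3% of defensins.

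Other families were divided, while among all named genes 75.6% were above background, 24.4% silent and 14.8% abundant. Of 35 clustered protocadherins 27 were silent, with Pcdhga9 at 2.25 the highest. Under that other call 65.7% of them rather than 22.9% were above background. Of 14 type I interferon genes 11 were silent and 3 low, with 50% rather than 21.4% above background under the other call. Cytochrome P450 genes were silent in 50 of 90, the highest being Cyp2d11 at 0.98, and the other call took the share above background from 44.4% to 70%. Prolactin family genes were silent in 16 of 23, while the proliferins Prl2c5 and Prl2c1 stood at 2.15 and 1.90. In the Rhox homeobox family 7 of 21 genes were silent and 2 abundant, Rhox5 at 3.95 and Rhox8 at 4.0 on 1 of 2 probes. Zinc finger genes named Zfp were above background in 342 of 358 cases, though 36 were abundant, led by Zfp663, whose 2 probes stood at 5.34 and -4.83. Solute carriers were above background in 293 of 369 (79.4%), near the share of all named genes. Potassium channels were above background in 45 of 80, with Kcna4 at 2.58 the only abundant channel. Orphan G protein-coupled receptors were silent in 38 of 70 genes, with Gpr157 at 2.49 the highest, interleukins in 15 of 32, with Il17d at -0.40 the highest, and UDP-glucuronosyltransferases in 12 of 14. Serpins were silent in 29 of 59, while Serpinb8 was abundant at 3.75. Collagens were above background in 33 of 42 genes (78.6%) and integrins in 19 of 24 (79.2%), both near the share of all named genes. With the mean over probes the share of collagens was 61.9%. Col18a1 at 3.71 was the highest collagen, and among integrins Itgb7 at 2.18 and Itgb1 at 2.14 came next after Itgam. Kinesins were above background in 34 of 36, led by the mitotic motors Kif20a at 3.27 and Kif23 at 3.06. Mage genes were silent in 10 of 19, with Maged1 at 2.67 and Mageb16 at 2.54 abundant, and 3 of 7 measured Xlr genes were silent, with Xlr3b at -1.54 the highest. The other call also took the share above background from 45.7% to 74.3% of orphan receptors, from 56.2% to 83.8% of potassium channels, from 50.8% to 64.4% of serpins and from 66.7% to 85.7% of Rhox genes. Members of these families can share sequence, so that a signal at a single gene is uncertain.

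Bands were then set beside the promoters of the genes, 300 bases from 250 before to 50 after the RefSeq start on GRCm38.p6. 13041 protein-coding genes had exactly 1 such window. Of them 9635 (73.9%) were well above background and 1990 (15.3%) abundant. The CpG ratio compares the CG dinucleotides present with those the C and G content would give, and most mouse DNA has a low ratio because methylated CpG is lost over evolution. Of the 2793 genes with a ratio of 0.2 or less, 33.3% were above background and 2.01% abundant. With the call of a positive and significant signal the first share was 53%. Both shares rose from class to class. At ratios of 0.4 to 0.6 they were 80.9% and 12.6%, and in the 1115 genes with a ratio over 1 they were 97.0% and 30.4%. The median ratio was 0.82 in abundant genes, 0.74 in intermediate, 0.37 in low and 0.18 in silent genes.

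Chemoreceptor genes and their gene models bear on the lowest class. In 884 of 1164 chemoreceptor genes (75.9%) the annotated start was an ATG codon, against 268 of 11877 other genes (2.26%). For these models the window is set on the start of the coding sequence and need not be a promoter. Without chemoreceptors the share above background in the lowest class was 44.9%, and without all models that start at ATG it was 41.8%. The order of the 6 classes was the same in both.

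**Figure D5:**
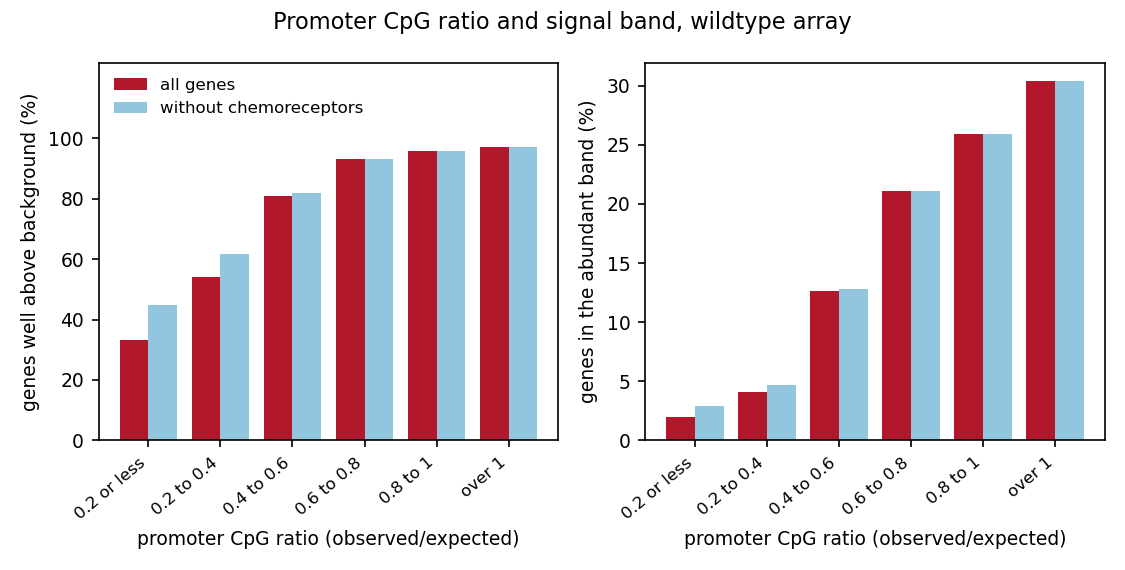
Bars give the share of genes well above background (left) and in the abundant band (right), in percent, for 6 classes of promoter CpG ratio, with all 13041 genes in red and without chemoreceptors in blue. Both shares rise with the ratio, from 33.3% to 97.0% and from 2.01% to 30.4% over all genes, and leaving out chemoreceptors lifts the lowest classes.

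The contrast is visible in single windows, printed 5′ to 3′ on the strand of the gene, from RefSeq. Psma2, a proteasome subunit at 4.59 (chr13:14612992-14613291, plus strand), has 19 CG dinucleotides, set in capitals, and a ratio of 0.85. Sox2 at 3.03 (chr3:34649745-34650044, plus strand) has 27, also in capitals, and a ratio of 0.82. Alb, the silent albumin gene (chr5:90460620-90460919, plus strand), has 3 and a ratio of 0.27.
Psma2: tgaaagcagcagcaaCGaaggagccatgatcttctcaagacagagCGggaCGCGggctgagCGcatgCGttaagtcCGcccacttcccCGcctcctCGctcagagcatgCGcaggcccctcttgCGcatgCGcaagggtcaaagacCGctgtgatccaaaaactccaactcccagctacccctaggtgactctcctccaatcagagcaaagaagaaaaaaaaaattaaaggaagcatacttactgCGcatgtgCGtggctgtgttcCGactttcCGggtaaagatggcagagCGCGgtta
Sox2: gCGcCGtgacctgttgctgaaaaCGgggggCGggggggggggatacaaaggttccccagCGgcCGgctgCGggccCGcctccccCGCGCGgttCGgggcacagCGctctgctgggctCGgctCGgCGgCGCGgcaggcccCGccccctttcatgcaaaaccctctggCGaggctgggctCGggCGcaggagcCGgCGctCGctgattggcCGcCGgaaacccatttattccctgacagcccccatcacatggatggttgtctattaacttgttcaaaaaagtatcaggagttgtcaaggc
Alb: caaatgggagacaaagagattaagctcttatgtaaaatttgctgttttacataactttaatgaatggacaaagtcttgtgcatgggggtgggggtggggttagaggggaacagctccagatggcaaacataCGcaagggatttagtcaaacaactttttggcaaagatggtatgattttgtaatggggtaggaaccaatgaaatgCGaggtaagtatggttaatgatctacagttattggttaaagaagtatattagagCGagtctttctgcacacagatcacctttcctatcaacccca

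The class medians of the CpG ratio followed the same division with exceptions. The median was 0.91 over 50 ribosomal protein promoters, 0.94 over 26 of replication genes and 0.86 over 23 of Polycomb genes, against 0.23 for liver, 0.17 for sperm and 0.17 for keratin-associated protein genes. The median over all 13041 genes was 0.61. Mesenchymal transcription factors lay above it at 0.79 although none of them was abundant, and Hox genes lay close to it at 0.62, with 10 of 20 windows over 0.6. Fibroblast matrix and contractile genes lay below it, at 0.40 and 0.33, although 9 of 36 and 11 of 26 genes were abundant. Among named genes with every probe above background, 40 were abundant at a ratio of 0.2 or less, including Pcolce, Sparc, Gcm1, Eno3, Psmb10 and Luc7l2 at 5.19, a splicing factor. Conversely 31 named genes were silent at a ratio over 1, among them Kdm5d and Grin1.

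Short motifs in the windows were counted on both strands unless stated. The letters CCGGAAG, a core bound by ETS factors, occurred in 12.7% of all windows, in 26.7% of those of abundant genes and in 2.11% of those of silent genes. Among genes with a CpG ratio over 0.6 the shares were 29.1% in the abundant and 7.85% in the silent band. GGGCGG, the GC box, went from 67.2% to 14.5% over all genes, but from 72.5% to 67.4% among those with a ratio over 0.6. The E-box CACGTG went from 13% to 4.37% over all genes, and from 13.6% to 11.3% among those with a ratio over 0.6. CCAAT differed little over all genes, 41.3% in the abundant against 39.4% in the silent band. Among genes with a ratio over 0.6 its shares were 39.98% in the abundant and 32.85% in the silent band. The octamer ATGCAAAT, known to bind POU factors, was in 1.84% of all windows, 1.36% of those of abundant and 2.50% of those of silent genes. Without chemoreceptors the share in silent genes was 1.84% for the octamer, 20.9% for the GC box and 3.09% for the ETS core. These are matches of letters and not sites of binding.

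TATAAA, searched on the strand of the gene from 45 to 15 bases before the start, ran the other way. It was in 3.28% of all windows, 1.41% of those of abundant genes and 5.90% of those of silent genes. Without chemoreceptors it was in 8.14% of those of silent genes. It was in 27 of 45 windows of keratin-associated protein genes (60.0%), 9 of 23 of cytokines and 8 of 19 of pancreas and gut genes. Among genes with a CpG ratio over 0.6 it was in 1.21% of abundant and 1.16% of silent ones. 2 windows with the motif in capitals show it in an abundant and in a silent gene. Vim, the intermediate filament gene at 4.05 (chr2:13574061-13574360, plus strand), has a ratio of 0.42, and Krtap3-2, silent (chr11:99556804-99557103, minus strand), has no CG at all.
Vim: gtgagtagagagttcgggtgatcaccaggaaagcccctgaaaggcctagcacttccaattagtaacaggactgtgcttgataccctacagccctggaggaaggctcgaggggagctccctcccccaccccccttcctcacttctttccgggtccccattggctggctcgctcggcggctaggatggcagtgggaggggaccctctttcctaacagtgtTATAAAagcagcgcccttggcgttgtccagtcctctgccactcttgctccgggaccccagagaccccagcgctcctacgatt
Krtap3-2: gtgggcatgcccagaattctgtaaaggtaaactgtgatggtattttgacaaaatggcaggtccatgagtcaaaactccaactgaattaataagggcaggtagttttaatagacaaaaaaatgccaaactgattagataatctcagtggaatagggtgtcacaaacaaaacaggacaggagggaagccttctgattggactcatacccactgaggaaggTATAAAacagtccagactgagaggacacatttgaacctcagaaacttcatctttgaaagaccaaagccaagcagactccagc

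Ribosomal protein genes are known to start within a run of pyrimidines, the tract through which growth signals control their translation. A run of at least 8 C or T in the stretch from 10 bases before to 20 after the start occurred in 11.3% of all windows, with little difference between bands, 11.6% in abundant and 10.5% in silent genes. It occurred in 22 of 50 windows of cytosolic ribosomal proteins (44.0%). The stretches of 6 of them, all abundant, are given with the run in capitals: Rpl15 (chr14:18270966-18270996, minus strand), Fau at 5.21 (chr19:6057937-6057967, plus strand), Rpl14 at 5.16 (chr9:120571507-120571537, plus strand), Rps26 at 5.05 (chr10:128626486-128626516, minus strand), Rpl18 at 5.00 (chr7:45718061-45718091, plus strand) and Rpl28 at 4.81 (chr7:4792955-4792985, plus strand).
Rpl15: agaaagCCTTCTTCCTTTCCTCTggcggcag
Fau: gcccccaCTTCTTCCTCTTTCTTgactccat
Rpl14: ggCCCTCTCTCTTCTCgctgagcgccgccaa
Rps26: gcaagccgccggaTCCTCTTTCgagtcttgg
Rpl18: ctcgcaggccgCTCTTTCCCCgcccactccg
Rpl28: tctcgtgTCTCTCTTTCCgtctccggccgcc

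Silent genes lay next to each other along the chromosomes. In RefSeq gene order, a gene was silent in 49.8% of cases after a silent neighbour and in 15.5% after an expressed one. Without chemoreceptors the shares were 35.2% and 14.7%. The longest silent runs were of olfactory receptors, 43 genes from Olfr1132 to Olfr1188 on chromosome 2, 40 from Olfr1444 to Olfr1505 on chromosome 19 and 38 from Olfr773 to Olfr820 on chromosome 10. Without any chemoreceptor the longest was 19 genes from Ugt2b34 to Csn3 on chromosome 5, which spans UDP-glucuronosyltransferase and casein genes. It was followed by 14 genes from Grik1 to Krtap19-1 on chromosome 16, 14 of the Pramel family on chromosome 4 and 13 defensins from Defa27 to Defb11 on chromosome 8. The longest expressed run held 90 genes from Mrpl9 to Sec22b on chromosome 3, and the next 76 from Fbl to Lrfn3 on chromosome 7.

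Noncoding transcripts were dimmer than coding ones. Of 497 long noncoding RNA genes with RefSeq names 52.1% were above background and 13 abundant, against 76.4% and 2962 of 19593 protein-coding genes. Of the 28917 probes without a gene name, which held 37.7% of the summed signal, 56.1% were above background. The largest part of these were 16193 probes designed to intergenic lincRNA regions, of which 57.7% were above background and 579 (3.58%) reached the 90th percentile. The array reads 1067 of these regions on both strands. In 802 of them (75.2%) both strands were above background and in 185 (17.3%) only 1 was. Taken singly, the forward strand was above background in 82.1% of these regions and the reverse strand in 85.6%. The 16193 probes cover 3540 regions, so a region can have several probes. Where both strands were above background, they differed by a median of 1.26 on the log2 scale. Transcription from both strands was not tested. The brightest such probe stood at 5.86, on the forward strand of the region chr2:143963320-143984245 of mm9, the build on which the array design names these regions.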

How the data were processed

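RNA of 1 wildtype culture was measured on a 1-colour Agilent array, 1 of 3 in the study. Per the file headers, spot intensity was extracted with Agilent Feature Extraction 11.5.1.1, whereas the submitters' processing notes name version 10.7. The deposited processed intensity is linear and background-subtracted. The authors' value table held the same signal for 55249 of 55249 single-spot probes within a relative tolerance of 1e-06, so its scale is linear and uncentred, with a median of 243.

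Of 62976 spots 59305 were not controls. 141 outlier spots were left out, 3 probes lost all their spots, and 0 spots were saturated. Spots of a probe were averaged, and a probe counted as well above background where over 0.5 of its spots were called so. Probes were named by looking up their accession, version removed, among the RefSeq genes of GRCm38.p6. A gene took the level of its brightest probe well above background. The array design is on mm9, so its own coordinates were not joined to RefSeq's: promoter windows and the order of genes along chromosomes are those of RefSeq on GRCm38.p6, reached by gene, and genes with several windows (2641) or none (3911) were left out of the promoter counts.

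There were 79 gene lists and families, 51 lists of 1366 genes and 28 families by name. 13 symbols were updated and 3 were not found. The members and lists were chosen with earlier results of these data known. The name patterns of the potassium channel and integrin families were corrected after they had taken in Kcnq1ot1 and Itgb1bp1. Genes were named by a rule: the 5 stem cell markers, the 25 highest genes, the brightest, dimmest and silent members of each list, the brightest of each family, and the 6 genes whose probes differ most. Predicted genes were counted but not named. Not all of the genes this selects are reported here.

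The bands were tested on simulated data before use. Alternatives were normexp in limma 3.58.1 with an offset of 50, 2 other detection calls, other ways of combining probes, outlier spots kept, the authors' value table and a limit at the 95th percentile. The lowest probe of each gene, and promoter classes without chemoreceptors or without gene models that start at ATG, were chosen after seeing the data. The software was R 4.3.3 and Python 3.11.15, with pandas 2.3.3, scipy 1.17.1 and numpy 2.4.6.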

Additional observations from a re-analysis of the deposited data

Results flagged for a closer look

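Of 96 probes to ERCC sequences, external RNAs that can be added before labelling, 4 were called well above background on the wildtype array. This is a signal in probes that no comparison used and for which no control sample exists. The highest of them had a median signal of 175 units, and the median over all 96 was 11.8 units. 4 of the 308 negative control spots were called as well.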

How the results depend on the processing

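The share of named genes well above background, 75.6%, was 84.9% with the scanner's call of a positive and significant signal, 74.5% with a limit set from the negative controls, 72.0% with the mean over probes, 71.2% for genes read by 1 probe and 71.4% with the lowest probe of each gene. The abundant band of 3008 genes held 1310 with a limit at the 95th percentile and 1812 when only genes read by 1 probe were taken, which leaves fewer genes. The share above background at a CpG ratio of 0.2 or less, 33.3%, was 53% with the call of a significant signal, 29.4% for genes read by 1 probe, 28.6% with the lowest probe, 44.9% without chemoreceptors and 41.8% without gene models that start at ATG. At a ratio over 1 the share of 97.0% was 99.1% with the call of a significant signal and 94.6% with the lowest probe. For the 79 lists and families, an exact 95% binomial interval around the share above background served only as a yardstick of size. It is set on the same array, so it measures no sampling error. Shares left it in 25 with the call of a significant signal, in 4 with the mean over probes and in 4 with the lowest probe. They left it in 1 for genes read by 1 probe and in 0 with negative controls or outlier spots kept. Normexp and the value table change the signal and not the call, so this share could not move with them. A list that reaches 100% from below always leaves its interval, as chromatin remodelling genes did from 96.6%. Type I interferon genes stayed inside theirs from 21.4% to 50%. Defensins went from 14.3% to 53.6% and olfactory receptors from 6.40% to 25% with the call of a significant signal. Silence therefore depends on the call near background, and the band of a gene on the probe chosen. No paired analysis was possible because only 1 array enters and no groups were compared.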
